A study of Mus musculus with 6 samples.

Results

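Bhlhe40, Bhlhe41, 0610040F04Rik, Ankrd37, Ndrg1 and Cited2 are 6 of the 50686 genes counted by RNA sequencing in embryoid bodies of mouse iPSCs, and 5 of them belong to the genes that cells are known to switch on when oxygen is low or to close relatives of those genes. They were chosen by name with their change under intermittent compressive force (ICF) already known. That change is therefore described here without a p-value, and calls of these genes are given only as a description. Fibroblasts of mouse gingiva had been reprogrammed to iPSCs, which were grown as embryoid bodies, exposed to retinoic acid and then attached to gelatin-coated dishes, and this history was common to all samples. The 3 ICF samples were loaded with 1.5 g per square centimetre at 0.23 Hz for 24 h in serum-free medium. The 3 control samples were kept unloaded and were also taken at 24 h, and no separate medium is stated for them. The labels number the samples of each group as donors 1 to 3, whereas the methods speak of independent experiments and name no donors, so the number is used here as a replicate number. Animal age, sex and strain are not given in the sources used here, and none of the samples carried a genetic change made for the comparison.

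Cells sense oxygen through the hypoxia-inducible factors (HIFs). When oxygen is plentiful, prolyl hydroxylases mark the HIF alpha subunits for destruction by the VHL ligase. When it is scarce, the alpha subunits pair with ARNT, bind DNA at a core of ACGTG or GCGTG and recruit the coactivators CBP and p300. Bhlhe40 and Bhlhe41 encode basic helix-loop-helix repressors that bind the E-box CACGTG, are HIF targets and dampen the circadian clock. Ankrd37 encodes a small ankyrin-repeat protein and is a direct HIF-1 target. Ndrg1, named as a gene regulated downstream of N-Myc, encodes a stress-responsive cytoplasmic protein. Cited2 encodes a protein that competes with HIF-1 alpha for CBP and p300 and so restrains the response. 0610040F04Rik is annotated as an antisense RNA that starts inside Bhlhe40 and runs the other way.

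The reads assigned to genes numbered 28711166 to 34194413 per sample. Multiples of 4 made up 89.0% of the nonzero counts of ICF replicate 3, against 20.3% to 21.5% elsewhere, so its low counts move in coarse steps. Only 20802 genes had a count in ICF replicate 3, against 24340 to 24889 in the other samples. Its read total may thus overstate its depth beside the others, which was not tested. The cells still carried pluripotency transcripts, with Pou5f1 at 841 ± 57.2 CPM (counts scaled to a common library size; SD, n = 3) in the control and 817 ± 70.4 CPM (SD, n = 3) with ICF. The summed level of 10 mesenchymal and fibroblast markers, which the feeder cells used earlier in culture also express, was 226 to 255 CPM in the control and 260 to 280.1 CPM with ICF. In that list Fap was too scarce to be tested, with 0.034 CPM in the control and no count with ICF. Col1a1 and Col3a1 were higher with ICF in the edgeR test. The part of this shift in the results below was not tested.

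All 6 genes passed the filter on low counts. Ankrd37, Bhlhe40 and Ndrg1 were much lower in the loaded embryoid bodies, Cited2 was slightly lower, Bhlhe41 was similar in both groups, and 0610040F04Rik was lower with a wide spread. Of the 6 genes, 3 passed an adjusted p of 0.05 as lower with ICF in edgeR's quasi-likelihood test and 0 as higher, beside 4.38% of all 16729 genes tested that were called lower and 7.85% called in either direction. With the replicate number as a block, 5 of the 6 were called lower, beside 15.3% of all genes called lower and 29.9% called in either direction. In 5 genes every ICF sample lay below every control sample, beside 15.9% of all genes, and in 31.4% of all genes the groups did not overlap in either direction. The contrast itself chose these genes, so nothing is read from those counts. In bulk RNA a lower level can reflect fewer cells that express a gene or less RNA per cell, and these cannot be told apart.

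**Figure D1:**
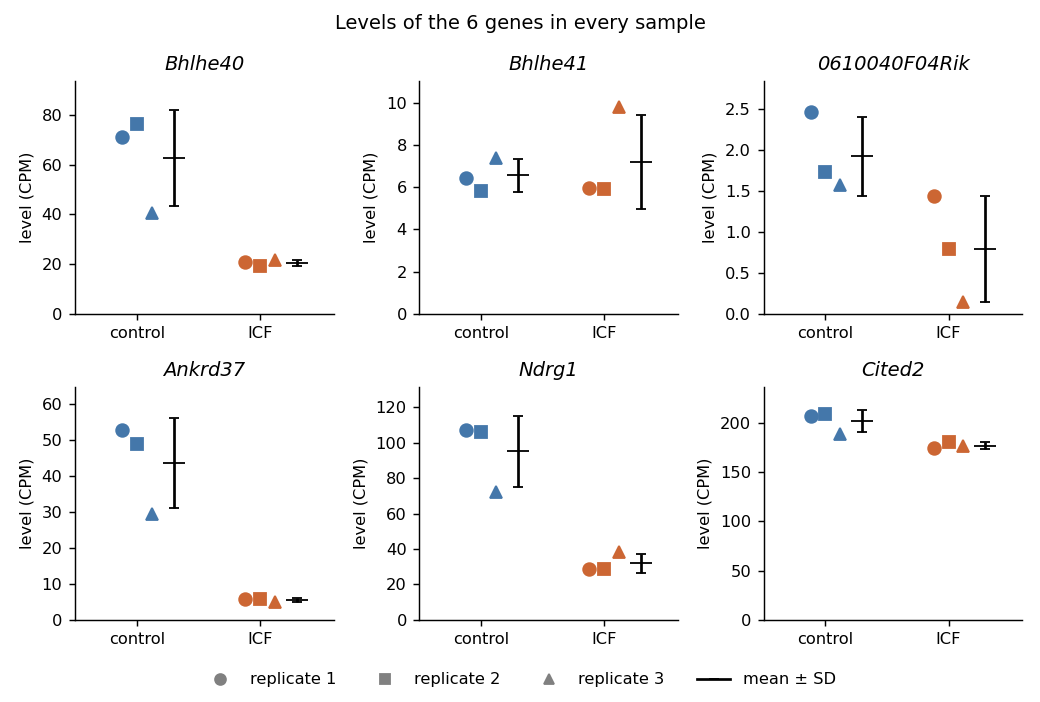
Level of each gene in CPM (vertical axes from 0) in the 3 control and the 3 ICF samples, with the marker shape giving the replicate number and the black bar the mean and SD. Ankrd37, Bhlhe40 and Ndrg1 are low in all ICF samples, and control replicate 3 is the lowest control in each of them.

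Ankrd37 (ENSMUSG00000050914) lies on the reverse strand of chromosome 8 (GRCm38, positions 45996902 to 46005707). Its samples gave 52.9, 48.8 and 29.4 CPM in control replicates 1, 2 and 3, and 5.87, 5.90 and 4.83 CPM in ICF replicates 1, 2 and 3. The groups were far apart, and the highest ICF sample stayed well under the lowest control. The means were 43.7 ± 12.5 CPM (SD, n = 3) and 5.54 ± 0.61 CPM (SD, n = 3), and the fitted log2 fold change was -2.98 (standard error 0.28), which is 7.87-fold lower. Only 10 of the genes tested had a more negative log2 fold change than Ankrd37, which ranked 11 of 16729.

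Bhlhe40 (ENSMUSG00000030103) lies on the forward strand of chromosome 6, from 108660629 to 108666925. Control replicates 1, 2 and 3 held 71.2, 76.2 and 40.6 CPM, and ICF replicates 1, 2 and 3 held 20.8, 19.2 and 21.5 CPM. The ICF samples were nearly alike, whereas control replicate 3 lay about midway between the other controls and the ICF samples. The means were 62.7 ± 19.3 CPM (SD, n = 3) and 20.5 ± 1.20 CPM (SD, n = 3), and the log2 fold change was -1.61 (standard error 0.29), or 3.06-fold lower.

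Ndrg1 (ENSMUSG00000005125) lies on the reverse strand of chromosome 15, from 66929318 to 66969640. Its control levels were 107, 106 and 72.2 CPM in replicates 1, 2 and 3, and its ICF levels 28.9, 28.5 and 38.1 CPM. Control replicate 3 was again the lowest control, and here ICF replicate 3 was the highest ICF sample, so that the groups came closest in replicate 3 without overlapping. The means were 95.1 ± 19.9 CPM (SD, n = 3) and 31.8 ± 5.43 CPM (SD, n = 3), and the fitted log2 fold change was -1.58 (standard error 0.23), or 2.99-fold lower. Ndrg1 and Bhlhe40 thus ranked 83 and 77 from the most negative value, close to each other.

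Cited2 (ENSMUSG00000039910), the restraint on HIF-1, lies on the forward strand of chromosome 10, from 17723218 to 17725674. It was the most abundant of the 6 genes. Its control levels were 207, 209 and 189 CPM in replicates 1, 2 and 3, and its ICF levels 174, 180.5 and 176 CPM. The groups did not overlap, but the gap between the lowest control and the highest ICF sample was small. The means were 202 ± 11.1 CPM (SD, n = 3) and 177 ± 3.20 CPM (SD, n = 3), and the fitted log2 fold change was -0.19 (standard error 0.05), or 1.14-fold lower. This gene was not called in the edgeR test without the block, from which nothing is read because the contrast chose the gene. A more negative log2 fold change was found in 23.6% of all genes tested.

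Bhlhe41 (ENSMUSG00000030256), the close relative of Bhlhe40, lies on the reverse strand of chromosome 6, from 145858243 to 145865558. Its control levels were 6.47, 5.85 and 7.41 CPM in replicates 1, 2 and 3, and its ICF levels 5.96, 5.90 and 9.80 CPM. The groups overlapped, and only ICF replicate 3 stood above the controls. The log2 fold change was 0.13 (standard error 0.26), and without ICF replicate 3 it was -0.14. The change seen in Bhlhe40 was therefore not seen in its relative, although the difference between the genes was not tested because both were chosen on this contrast. Per length of exon, Bhlhe41 stood at 6.36%, 5.37% and 12.8% of Bhlhe40 in control replicates 1, 2 and 3, and at 20.1%, 21.5% and 31.9% with ICF.

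0610040F04Rik (ENSMUSG00000087341) lies on the reverse strand of chromosome 6, from 108577039 to 108660934. Its start lies 306 bases inside the 5′ end of Bhlhe40. Both genes are thus transcribed in opposite directions across a shared stretch that spans 108660629 to 108660934. It was the scarcest of the 6 genes, with raw counts of 72, 54 and 45 in control replicates 1, 2 and 3 and of 50, 26 and 4 in ICF replicates 1, 2 and 3. The count of 4 is a single step of the coarse counts in ICF replicate 3. As CPM the control samples stood at 2.46, 1.73 and 1.57 and the ICF samples at 1.44, 0.787 and 0.138, so ICF replicate 1 came close to the lowest control. The log2 fold change was -1.24 (standard error 0.87). It was -0.77 without ICF replicate 3 and -2.0 without ICF replicate 1, and -0.96 with the counts of ICF replicate 3 divided by 4. Relative to Bhlhe40 per length of exon, the antisense RNA stood at 7.57%, 4.95% and 8.45% in the control and at 15.2%, 8.97% and 1.40% with ICF. These ratios overlap between the groups.

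The overlap of the antisense RNA with Bhlhe40 covers 118 exonic bases, which are 2.51% of the exons of Bhlhe40 and 5.49% of those of 0610040F04Rik. The libraries were strand-specific, but the strand setting of the counting is not given in the sources used here. Of 114 genes whose exons lie wholly within exons of a well-counted gene on the other strand, 66 had at least 1 count, and a count that ignores strand would set such reads aside as ambiguous. No 75-base stretch of the longest transcript of any of the 6 genes occurs on the same strand in a transcript of another gene. On either strand, shared stretches made up 1.51% for Bhlhe40, 7.34% for Bhlhe41, 2.77% for 0610040F04Rik, 4.92% for Ankrd37, 1.61% for Ndrg1 and 0% for Cited2.

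Replicate 3 differed from the others in several of these genes. Control replicate 3 held 55.0% of the mean of control replicates 1 and 2 for Bhlhe40, 57.9% for Ankrd37 and 67.7% for Ndrg1. It held 90.8% for Cited2 and 120% for Bhlhe41. The genes with a large difference under ICF were thus also those in which control replicate 3 was low. Within same-numbered samples, the log2 difference of Bhlhe40 was -1.78, -1.99 and -0.91 in replicates 1, 2 and 3. For Ndrg1 it was -1.89, -1.89 and -0.92, and for Ankrd37 -3.16, -3.04 and -2.59. All of these were negative, and the smallest of each gene was that of replicate 3. Without control replicate 3 the log2 fold changes were -1.85 for Bhlhe40, -1.75 for Ndrg1 and -3.20 for Ankrd37.

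**Figure D2:**
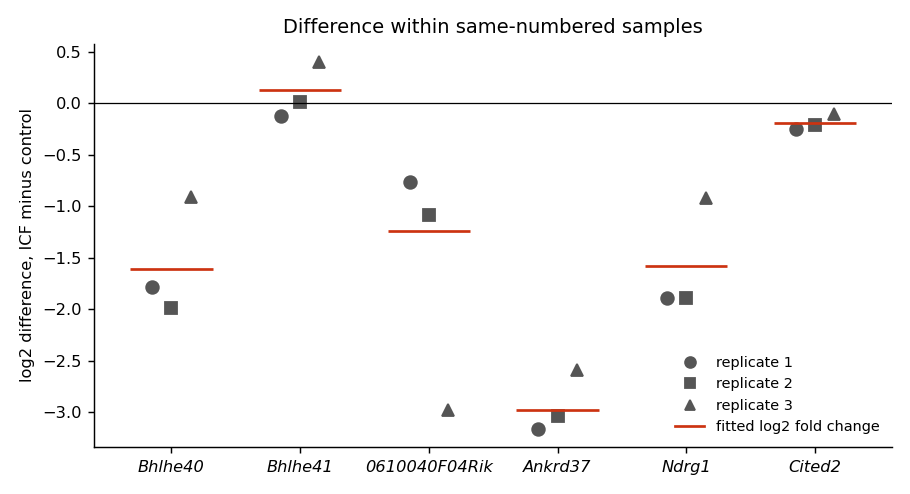
Log2 difference (ICF minus control) within samples of the same replicate number, with 1 marker per replicate and the fitted log2 fold change as a red line. Replicate 3 has the smallest difference for Bhlhe40, Ankrd37, Ndrg1 and Cited2 and the largest for 0610040F04Rik, where it rests on 4 counts.

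The same position of control replicate 3 was found in a wider list of hypoxia targets outside glycolysis. Over its 38 genes the median log2 difference between control replicate 3 and the mean of control replicates 1 and 2 was -0.29, beside 0.00 over all genes tested. Control replicate 3 was the lowest control for 30 of the 38 genes (78.9%), beside 42.1% of all genes tested. In the ICF group, replicate 3 was the lowest for 13 of the 38 genes (34.2%), beside 43.6% of all genes.

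Levels of different genes can be compared per length, as RPKM from the same scaled counts divided by the kilobases of annotated exon. In the control the order was Cited2 at 82.2 ± 4.53 RPKM (SD, n = 3), Ankrd37 at 28.4 ± 8.14, Ndrg1 at 14.4 ± 3.01, Bhlhe40 at 13.3 ± 4.10, Bhlhe41 at 0.978 ± 0.117 and 0610040F04Rik at 0.892 ± 0.223. Ndrg1 and Bhlhe40 did not differ beyond their spread, nor did Bhlhe41 and 0610040F04Rik, while the steps from Cited2 to Ankrd37 and from Ankrd37 to Ndrg1 were wider than the spread. With ICF the order was Cited2 at 72.0 ± 1.30 RPKM (SD, n = 3), Ndrg1 at 4.82 ± 0.82, Bhlhe40 at 4.36 ± 0.25, Ankrd37 at 3.60 ± 0.40, Bhlhe41 at 1.08 ± 0.33 and 0610040F04Rik at 0.367 ± 0.303. Ankrd37 thus moved from the second place to the fourth. Ndrg1 and Bhlhe40 again did not differ beyond their spread, whereas each ICF sample had less Ankrd37 than Bhlhe40 by this length. The longest transcripts of Ankrd37 and Bhlhe40 have 927 and 3113 bases, against 1539 and 4705 bases of annotated exon. The order of genes with close levels thus depends on the length chosen.

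**Figure D3:**
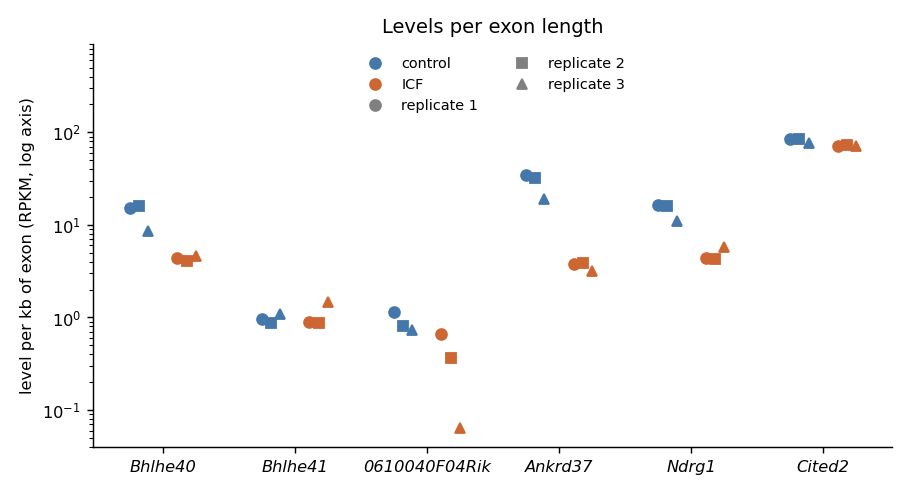
Level of each gene per kilobase of exon (RPKM, log axis) in the control and ICF samples, with the marker shape giving the replicate number. Cited2 stays above 70 RPKM in all 6 samples, while Ankrd37 goes from 19.1 or more in the control to 3.84 or less with ICF.

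The promoters show which of the genes carry the letters that HIF and the E-box repressors are known to bind. Windows of 250 bases before the start site were found in the RefSeq table of GRCm38.p6 for 4 of the 6 genes, and Bhlhe40 and Ndrg1 had no entry. ACGTG or GCGTG was searched on both strands, and CACGTG, which contains ACGTG on both strands and so counts as 2 matches, was counted as well. At least 1 match to ACGTG or GCGTG was present in 54.0% of the 14873 windows of genes tested, 4 or more in 4.55%, and CACGTG in 8.02%. Ankrd37 is shown because it had the largest difference and 4 matches, Cited2 and Bhlhe41 because they hold the E-box but differed little, and 0610040F04Rik because its window lies within Bhlhe40. Each sequence reads 5′ to 3′ on the strand of its gene, capitals mark ACGTG or GCGTG on either strand, and bases annotated as UTR are left out.
Ankrd37: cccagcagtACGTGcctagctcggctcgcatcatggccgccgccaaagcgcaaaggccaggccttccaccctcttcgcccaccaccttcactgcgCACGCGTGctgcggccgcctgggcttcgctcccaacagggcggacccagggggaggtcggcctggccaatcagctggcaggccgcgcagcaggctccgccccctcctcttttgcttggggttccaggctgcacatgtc
Cited2: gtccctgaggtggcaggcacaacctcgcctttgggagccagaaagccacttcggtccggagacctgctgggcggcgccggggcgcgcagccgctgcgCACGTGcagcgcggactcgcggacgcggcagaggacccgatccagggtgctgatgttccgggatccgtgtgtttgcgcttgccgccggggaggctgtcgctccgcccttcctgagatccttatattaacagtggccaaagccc
Bhlhe41: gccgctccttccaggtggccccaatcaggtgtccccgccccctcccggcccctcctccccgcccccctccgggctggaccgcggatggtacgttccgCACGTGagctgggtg
0610040F04Rik: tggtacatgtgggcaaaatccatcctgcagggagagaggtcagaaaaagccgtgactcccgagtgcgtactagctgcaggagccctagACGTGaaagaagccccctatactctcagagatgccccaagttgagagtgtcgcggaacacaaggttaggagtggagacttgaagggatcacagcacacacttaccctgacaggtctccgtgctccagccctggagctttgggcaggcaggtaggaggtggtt

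The Ankrd37 stretch is chr8:45999868-46000100 on the reverse strand. It lies inside the annotated body of Ankrd37, whose 5′ end is at 46005707, and inside Lrp2bp on the other strand. The RefSeq start used here thus differs from that annotated 5′ end. The 4 matches of Ankrd37 start 241, 155, 152 and 6 bases before the RefSeq start site, and the last lies in the annotated UTR that is not printed. The Cited2 stretch is chr10:17722978-17723217 on the forward strand and holds 1 E-box, which starts 153 bases before the start site. The Bhlhe41 stretch is chr6:145865559-145865670 on the reverse strand, with an E-box that also starts 153 bases before the start site, and 2 more matches to GCGTG lie 119 and 66 bases before it in the part not printed. The printed window of 0610040F04Rik is chr6:108660935-108661184 on the reverse strand, and all 250 bases lie within Bhlhe40, 82 of them in its exons and 168 in its introns. It holds 1 match, which starts 162 bases before the start site of the antisense RNA. A second RefSeq start of this gene has a window at chr6:108623168-108623417, outside Bhlhe40, with 0 matches to either motif. Of Ankrd37, Bhlhe40 and Ndrg1, only Ankrd37 had a window. Matches thus occur in Ankrd37, which had a large difference, and in Cited2 and Bhlhe41, which differed little. A match is a description of the letters, not of binding.

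The chromosomal neighbours show whether the differences extended beyond each gene. Among the 21 nearest genes tested, 3 were lower and 1 was higher with ICF at an adjusted p of 0.05 in edgeR's quasi-likelihood test, beside 4.38% and 3.47% of all genes tested. Their median log2 fold change was -0.05, beside 0.003 over all genes. With the replicate block, 7 were lower and 3 higher, beside 15.3% and 14.6% of all genes. Without control replicate 1, control replicate 2 or ICF replicate 1, 0 of the 21 were called lower, and without ICF replicate 2 only Pdlim3 was.

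Around Ndrg1, the nearest gene was higher with ICF. Ccn4, which encodes a secreted matricellular protein induced by WNT signaling, ends 6.12 kb from the 3′ end of Ndrg1. Its level was 0.821, 0.767 and 1.22 CPM in control replicates 1, 2 and 3 and 2.88, 3.48 and 5.66 CPM in ICF replicates 1, 2 and 3. The groups did not overlap, and Ccn4 rose by 2.09 on the log2 scale (standard error 0.35, adjusted p = 0.006, edgeR). It was called higher in each of the 11 alternative settings. St3gal1 and Zfat on the other side had log2 fold changes of -0.12 and -0.38 and did not pass, with adjusted p-values of 0.51 and 0.069 in edgeR's test. Zfat was called lower with the replicate block (adjusted p = 0.0026, edgeR) and with DESeq2 (adjusted p = 0.032). Phf20l1, the gene beyond Ccn4, had a log2 fold change of 0.36 (adjusted p = 0.31, edgeR) and was called higher with the replicate block (adjusted p = 0.00045, edgeR).

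Around Ankrd37, all 5 neighbours had a log2 fold change below 0. Ufsp2, which encodes a protease of the UFM1 pathway, overlaps the 3′ end of Ankrd37 on the other strand by 57 bases. It fell from 48.6 ± 5.21 to 36.3 ± 1.05 CPM (SD, n = 3 each), and the fitted log2 fold change was -0.42 (adjusted p = 0.023, edgeR). Pdlim3, an actin-associated protein gene 77.4 kb away, fell from 5.14 ± 0.08 to 2.71 ± 0.73 CPM (SD, n = 3 each), and the fitted log2 fold change was -0.92 (adjusted p = 0.026, edgeR). These calls were lost without control replicate 1, control replicate 2 or ICF replicate 1, and that of Ufsp2 also without ICF replicate 2. 1700029J07Rik, Snx25 and Cfap97 had log2 fold changes of -0.64, -0.23 and -0.06 and did not pass, and 1700029J07Rik and Snx25 passed with the replicate block (adjusted p = 0.022 and 0.011, edgeR). Lrp2bp, on the other strand, overlaps 22.7% of the exonic bases of Ankrd37 and did not pass the filter on low counts.

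Around Bhlhe40 the neighbours moved little. Itpr1, a calcium channel gene of the endoplasmic reticulum, lies 109.5 kb from Bhlhe40 and had a log2 fold change of -0.36 (adjusted p = 0.043, edgeR), a call lost when any sample other than control replicate 3 was left out. Arl8b and Edem1, 116 and 162 kb away on the other side, had log2 fold changes of -0.04 and -0.11 and did not pass. None of the 8 neighbours of Bhlhe41 and Cited2 was called, while under the replicate block Tuba3b was lower and C330004P14Rik higher.

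**Figure D4:**
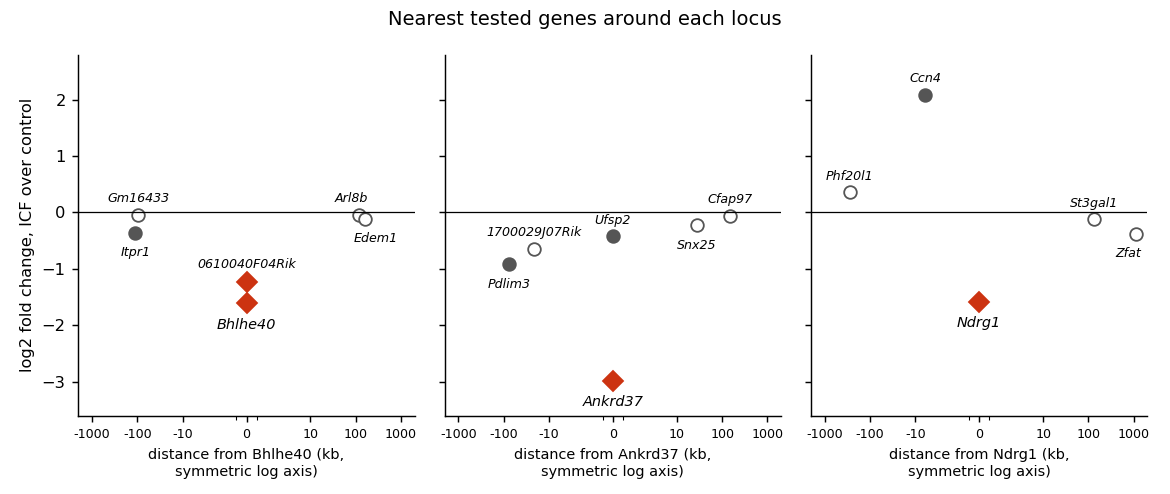
Log2 fold change (ICF over control) of the nearest tested genes around Bhlhe40, Ankrd37 and Ndrg1 by distance in kb on a symmetric log axis, where filled circles passed an adjusted p of 0.05 in edgeR and red diamonds are the genes described here. Ccn4 stands at 2.09 beside Ndrg1 at -1.58, and no neighbour of Ankrd37 comes near its -2.98.

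Other genes of the same pathways were taken from lists written with earlier results of these data known. The counts and adjusted p-values of these list genes are thus a description, and no support is drawn from them. The counts for each list stand beside 4.38% of all genes tested called lower and 3.47% called higher, or 15.3% and 14.6% with the replicate block. Of 38 hypoxia targets outside glycolysis, 27 were lower and 0 higher with ICF (edgeR), beside 4.38% and 3.47% of all genes, and the median of the 38 log2 fold changes was -0.83. The lowest were Ndufa4l2, a mitochondrial protein gene, at -4.41 (adjusted p = 0.00089), Adm, the vasodilator adrenomedullin, at -4.08 (adjusted p = 0.00054), the prolyl hydroxylase gene Egln3 at -2.73 (adjusted p = 0.00036) and the mitophagy receptor gene Bnip3 at -2.52 (adjusted p = 0.00013, all from edgeR). Mif, the most abundant of those that did not pass, had a log2 fold change of -0.62 (adjusted p = 0.055, edgeR). This list leaves out the enzymes of glycolysis but holds genes of glucose uptake and its control, such as Slc2a1 at -1.43. It is therefore not apart from glucose metabolism.

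Of the 10 genes of HIF subunits, hydroxylases and VHL, the hydroxylase genes Egln1 and Egln3 were lower and 0 genes were higher in the edgeR test, and both also belong to the hypoxia target list. Egln1 fell from 97.6 ± 24.1 to 40.1 ± 7.62 CPM (SD, n = 3 each), and the fitted log2 fold change was -1.28 (adjusted p = 0.0068, edgeR). Hif1a, which encodes HIF-1 alpha, stood at 139 ± 19.0 CPM in the control samples and at 183 ± 23.8 CPM in the ICF samples (SD, n = 3 each), and the fitted log2 fold change was 0.39 (adjusted p = 0.074, edgeR). With the replicate block 6 of the list were lower and 2 higher, beside 15.3% and 14.6% of all genes, and Hif1a was 1 of the higher genes (adjusted p = 1.7e-07, edgeR). Hif3a, which encodes another alpha subunit, had a log2 fold change of -0.33 and was called lower with the block (adjusted p = 0.011, edgeR) but not without it. Epas1, the most abundant gene of the list and also an alpha subunit, had a log2 fold change of 0.12 (adjusted p = 0.5, edgeR).

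Bhlhe40 and Bhlhe41 act on the circadian clock by opposing the activators CLOCK and BMAL1. Of 20 clock genes tested from a list of 22, 4 were lower and 0 higher with ICF in the edgeR test, beside 4.38% and 3.47% of all genes, and the median log2 fold change was 0.00. Rora, a nuclear receptor that activates Arntl, fell from 6.62 ± 1.24 to 3.43 ± 0.10 CPM (SD, n = 3 each), and the fitted log2 fold change was -0.95 (adjusted p = 0.011, edgeR). Ciart, a clock repressor gene, fell by 0.71 on the log2 scale (adjusted p = 0.0096, edgeR), Per3 by 0.57 (adjusted p = 0.014) and the casein kinase gene Csnk1e by 0.44 (adjusted p = 0.045). Without control replicate 1 or 2, 0 of these genes were called. Arntl, which encodes BMAL1, and Clock had log2 fold changes of -0.16 and 0.05 and did not pass (adjusted p = 0.18 and 0.82, edgeR). With the replicate block 7 were lower, among them Per1, Cry2 and Nfil3, and 3 were higher, namely Arntl2, Per2 and Nr1d1, beside 15.3% and 14.6% of all genes. Csnk1d, the most abundant gene of the list, did not pass, with a log2 fold change of -0.07 (adjusted p = 0.48, edgeR).

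The HES and HEY genes encode repressors of the same helix-loop-helix branch as Bhlhe40. Of 5 tested from 10 listed, 0 were called in either direction by edgeR, and only 5 of the list passed the filter on low counts. Hes1, a Notch target and the most abundant of them, had a log2 fold change of -0.05 (adjusted p = 0.84, edgeR). Hes6 was called lower with the replicate block at -0.21 (adjusted p = 0.039, edgeR).

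In the NDRG family, Ndrg2 was also lower. It fell from 11.2 ± 0.96 to 5.49 ± 0.04 CPM (SD, n = 3 each), and the fitted log2 fold change was -1.02 (adjusted p = 0.0017, edgeR), and it was called lower in each of the 11 alternative settings. Ndrg3 and Ndrg4 had log2 fold changes of -0.13 and 0.06 and did not pass (adjusted p = 0.41 and 0.8, edgeR). Neither did the genes of the kinases SGK1 and GSK3 beta, which phosphorylate NDRG1, with log2 fold changes of -0.03 for Sgk1 and 0.09 for Gsk3b. Mycn, which encodes the repressor after which the family is named, was the most abundant of the list, with 296 ± 25.6 CPM in the control samples and 314 ± 14.0 CPM in the ICF samples (SD, n = 3 each) (adjusted p = 0.52, edgeR). In all, 1 of the 10 genes of this list was lower and 0 were higher.

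Of 8 genes tested among the CITED family and its partners, 0 were called in either direction by edgeR. Cited1 and Cited4, the relatives of Cited2, had log2 fold changes of -0.11 and -0.45 (adjusted p = 0.65 and 0.28, edgeR). Ep300, the gene of p300 and the most abundant of the list, had a log2 fold change of 0.12 (adjusted p = 0.41, edgeR), and Crebbp, the gene of CBP, 0.24 (adjusted p = 0.077, edgeR). Crebbp, Tfap2c and Hif1an were higher with the replicate block (adjusted p = 0.0019, 0.044 and 0.0048, edgeR). FEM1B is the substrate receptor of a ubiquitin ligase that marks Ankrd37 for destruction. None of the 7 genes listed for this ligase, which include the related genes Fem1a and Fem1c, was called by edgeR. Fem1b, the most abundant, had a log2 fold change of 0.02 (adjusted p = 0.92, edgeR). Fem1a was called higher with the replicate block at 0.19 (adjusted p = 0.023, edgeR).

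**Figure D5:**
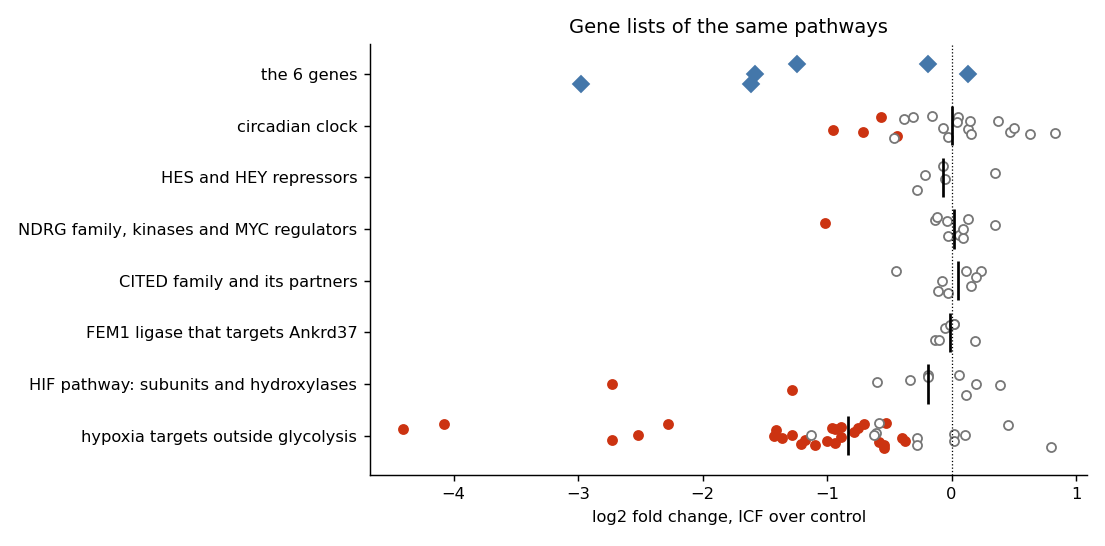
Log2 fold change (ICF over control) of the tested genes of each list, where filled red circles passed an adjusted p of 0.05 in edgeR, open circles did not, black bars are list medians and blue diamonds are the 6 genes described here. The hypoxia targets have a median of -0.83, while the medians of the other lists lie between -0.19 and 0.05.

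The genes whose pattern over the 6 samples was closest to each of the 6 were found by the root mean square difference of log2 CPM after each gene was centred on its own mean, among the 11909 genes whose mean count reached 100. This measure uses the contrast that chose the 6 genes, so it is a description. Egln3 was closest to Ankrd37, with a difference of 0.12, followed by Grin1, a glutamate receptor gene, at 0.18 and Stc1, a secreted glycoprotein gene, at 0.22. For Ndrg1 the closest were Lef1, a WNT-responsive transcription factor gene, at 0.11 and the glucose transporter gene Slc2a1 and the glycolysis gene Pgk1 at 0.13 each. Pgk1 is known to have near-identical processed copies, so its count is uncertain. For Bhlhe40 the closest were Cdc42ep2 and the stress-response gene Ier3 at 0.13 each and Prelid2 at 0.15. Bhlhe40 and Ndrg1 differed from each other by 0.15, and both differed more from Ankrd37, by 0.70 and 0.72.

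The other 3 genes had neighbours of another kind. Bhlhe41 was closest to Il33, Doc2g and Anxa3, at 0.04, 0.05 and 0.06, whose log2 fold changes were 0.13, 0.13 and 0.06. Cited2 was closest to Racgap1 at 0.01, and to Fabp5 and Eif2b3 at 0.02 each, with log2 fold changes of -0.18, -0.18 and -0.21. For 0610040F04Rik the closest gene, Elavl3, was still 0.46 away, more than for any of the other 5 genes. The genes compared had a mean count of at least 100, whereas 0610040F04Rik had 4 to 72 counts per sample. A part of its distance may be count noise, which was not tested, so no trait of the gene is read from it. 0610040F04Rik was 0.91 from Bhlhe40, the gene it overlaps.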

How the data were processed

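RNA sequencing covered 3 ICF and 3 control samples. The authors prepared strand-specific libraries, sequenced 75-base single reads, trimmed with Trimmomatic, aligned with HISAT2 and used HTSeq to make the deposited raw counts per gene. The submitters' processing notes name bcl2fastq 2.19, and GRCm38 among the builds, but no other version. HTSeq leaves out reads that align to several places, which were 29.5% to 31.3% of the reads here, and its closing rows of uncounted reads were left out.

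Of the identifiers, 50376 were named from GENCODE M21 (GRCm38). The deposited counts were filtered with filterByExpr, scaled by TMM to CPM and tested by the quasi-likelihood method (glmQLFit, then glmQLFTest, no block) of edgeR 4.0.16 under R 4.3.3, with Benjamini-Hochberg adjustment over all genes tested. Standard errors come from the SDs of log2 CPM with a prior count of 2, not from the fit. The p-values measure the spread between these samples, which may be partly technical. Between replicates 1 and 2 the median chi-square per gene of the difference in counts was 0.97 in the control and 1.04 with ICF. Between either of them and replicate 3 of the same group it was 2.68 to 4.91. Replicate 3 thus lay farther from the other replicates than they lay from each other. The procedure was also tested on simulated data.

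The 6 genes and all lists were chosen with earlier results of these data known, so the 6 genes get no p-value. The p-values of list genes are descriptive for the same reason. Other genes are named when they passed in a list (up to 4 per direction), were its most abundant gene that did not pass, were among the 2 nearest on each side, or were among the 3 most alike; list genes that changed only in other settings, relatives and known partners were added after their values were seen. The labels give same-numbered samples 1 donor number, and across genes the deviations of the 3 pairs from their group means had r of 0.15, 0.20 and 0.38, so the number was also used as a block. Control 1 with ICF 2 (r of 0.26) and control 2 with ICF 1 (0.17) correlated about as well, so only replicate 3 stood apart. The alternatives were DESeq2 1.42.0, RLE size factors, no low-count filter, the block, each sample left out in turn and, chosen after seeing the data, the counts of ICF replicate 3 divided by 4. 1 gene of the hypoxia target list is not reported here by name.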

Additional observations from a re-analysis of the deposited data

How the results depend on the processing

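The log2 fold changes of the 6 genes stayed within 1 SD of replicates of the values given above under all 11 alternatives, with a range of -3.20 to -2.82 for Ankrd37, -1.85 to -1.45 for Bhlhe40, -1.75 to -1.49 for Ndrg1, -0.24 to -0.16 for Cited2, -0.14 to 0.26 for Bhlhe41 and -2.0 to -0.77 for 0610040F04Rik when 1 sample was left out. With the replicate block they were -2.97, -1.58, -1.57, -0.19, 0.11 and -1.37. The counts of calls moved more. With the replicate block, 2561 genes were lower and 2445 higher, and the counts were 7 lower and 3 higher for clock genes, 1 lower for HES and HEY genes, 3 higher for the CITED list, 1 higher for the FEM1 ligase, 6 lower and 2 higher for HIF subunits and hydroxylases, 1 higher for hypoxia targets and 7 lower and 3 higher for neighbours. Of the 6 genes, 5 were called lower with the block and 3 without it. The counts of the other directions of these lists, and of the NDRG list, moved by less than 1.5 times. With DESeq2, 877 genes were higher, 7 clock genes were lower and 1 higher, and 1 gene each of the CITED and HIF lists was higher. Without the low-count filter, 2 clock genes, 1 HIF gene and 1 hypoxia target were higher. With 1 sample left out, 215 to 928 genes were lower and 85 to 724 higher. In the same fits 0 to 6 clock genes were lower and 0 to 1 higher, 0 to 1 HIF genes and 0 to 1 hypoxia targets were higher, 21 to 32 hypoxia targets were lower, and 0 to 3 neighbours were lower. RLE size factors, and dividing the coarse counts by 4, moved no count by over 1.5 times. Why the counts moved was not tested. With 4 to 72 counts per sample, depth limits 0610040F04Rik most.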

Other observations

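The letters of the HIF core were also counted in the promoters of the lists. Among tested genes with a RefSeq window, 25 of 29 hypoxia targets (86.2%) and 14 of 17 clock genes (82.4%) held ACGTG or GCGTG in at least 1 window of 250 bases, beside 59.9% of 11642 genes tested. Of the genes of the FEM1 ligase 3 of 4 held it, and of the CITED list 3 of 7. The HES and HEY list had 3 of 3, the HIF subunits and hydroxylases 6 of 9 (66.7%) and the NDRG list 4 of 7 (57.1%). Differences in base composition between these promoters were not accounted for.

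Among marker genes outside the lists of the report, Tdgf1, which encodes the Nodal coreceptor Cripto, was lower with ICF at a log2 fold change of -0.81 (adjusted p = 0.0028, edgeR), while the other 9 pluripotency markers were not called. Of 6 tested genes that respond to retinoic acid, Cyp26a1 and Stra8 were lower, at -0.70 and -0.98 (adjusted p = 0.0052 and 0.0062, edgeR). The endoderm marker Sox17 was lower at -0.34 (adjusted p = 0.045, edgeR), and 0 of 5 neural and 0 of 4 endothelial markers tested were called.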
